A study of Mus musculus with 18 samples.

Results

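Smooth muscle contractile genes were followed in RNA-seq of E0771 cells, a mouse triple-negative breast cancer line, treated with Senexin B (SnxB), an inhibitor of the kinases CDK8 and CDK19. The set held 10 genes of 50686 in the count files, and 8 of the 10 passed the filter on low counts that left 12772 genes for testing. The genes were picked from a list that names them as raised by SnxB, and their response in cntrl cells is treated here as a value they were chosen on and given as a description without a test. Which libraries the list was drawn from is not recorded. They comprise the smooth muscle actins Actg2 and Acta2, regulators of myosin (Myl9, Mylk), actin-binding genes (Tagln, Cnn1, Tpm1, Tpm2), the channel subunit Kcnmb1 and the transcription factor gene Srf.

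All cells carried a lentiviral CMV-Firefly Luciferase construct selected with puromycin, and on top of it a retroviral hairpin in a vector with mCherry, on which the infected cells were sorted. The hairpin was directed against Renilla (cntrl) or against Cdk8 (shCdk8-1 or shCdk8-2), and each of the 3 resulting lines received either DMSO or SnxB at 1 µM over 48 h. There were 3 libraries in each of the 6 groups, 18 in all, and the labels do not say whether the 3 came from separate cultures, so p-values measure the spread between these libraries, which may be technical. Each hairpin was studied in a single infected population, so an effect of the hairpin and a difference between lines that arose otherwise cannot be told apart.

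Contractile genes encode the actin filaments, tropomyosins and myosin regulators that shorten smooth muscle cells. Their promoters are known for CArG boxes, the sequence that serum response factor (SRF) binds, and SRF is driven there by cofactors of the myocardin family (Myocd, Mrtfa and Mrtfb), of which Mrtfa and Mrtfb follow the state of the actin cytoskeleton, or by ternary complex factors of the Elk family (TCF), which follow growth signals. CDK8 and CDK19 are the kinases of the Mediator complex, which connects transcription factors with RNA polymerase II.

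The promoters are shown for the 3 members in which a CArG box or a near match was found, and for Kcnmb1, which was among the members with the largest folds and had neither. RefSeq gave a promoter for 8 of the 10 members, from 250 bases before to 50 after the start that RefSeq gives in GRCm38.p6. These starts equal the gene bounds of GENCODE given below for Kcnmb1 and Srf and differ from them for the other members with a promoter. The window of Mylk, on chromosome 16 from 34784700 to 34784999, lies inside the gene as GENCODE has it. Actg2 and Tagln had no entry. Capitals mark CArG boxes and, in addition, near matches, in which 1 of the central bases was C or G. The motif reads the same on both strands, and no 2 matches overlapped.
Acta2, chr19:34255324-34255623, minus strand: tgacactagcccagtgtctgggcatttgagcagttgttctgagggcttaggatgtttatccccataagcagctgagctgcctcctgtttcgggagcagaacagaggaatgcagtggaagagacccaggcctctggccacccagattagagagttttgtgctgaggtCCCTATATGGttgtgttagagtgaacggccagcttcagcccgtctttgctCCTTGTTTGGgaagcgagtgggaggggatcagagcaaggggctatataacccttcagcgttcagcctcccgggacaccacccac
Myl9, chr2:156775214-156775513, plus strand: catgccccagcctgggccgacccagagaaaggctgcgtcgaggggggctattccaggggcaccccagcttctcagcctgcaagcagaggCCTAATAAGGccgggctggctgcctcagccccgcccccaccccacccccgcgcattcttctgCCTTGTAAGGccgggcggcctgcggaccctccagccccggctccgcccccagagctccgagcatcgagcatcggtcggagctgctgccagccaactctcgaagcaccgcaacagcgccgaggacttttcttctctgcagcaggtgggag
Srf, chr17:46556113-46556412, minus strand: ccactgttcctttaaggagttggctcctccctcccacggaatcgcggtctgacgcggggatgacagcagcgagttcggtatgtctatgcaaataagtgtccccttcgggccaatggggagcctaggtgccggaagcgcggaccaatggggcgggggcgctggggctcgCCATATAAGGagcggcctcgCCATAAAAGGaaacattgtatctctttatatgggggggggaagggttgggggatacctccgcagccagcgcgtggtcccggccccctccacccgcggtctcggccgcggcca
Kcnmb1, chr11:33962763-33963062, plus strand: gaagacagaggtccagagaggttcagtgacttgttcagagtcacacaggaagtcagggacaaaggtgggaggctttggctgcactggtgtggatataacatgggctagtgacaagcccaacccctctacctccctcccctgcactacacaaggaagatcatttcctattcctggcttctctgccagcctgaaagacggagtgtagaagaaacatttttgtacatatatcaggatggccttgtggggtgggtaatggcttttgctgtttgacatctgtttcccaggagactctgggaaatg
Counted from the RefSeq start as 1, with no base 0, Srf held 2 CArG boxes, from -82 to -73 and from -62 to -53. Myl9 held 1 CArG box from -161 to -152 and a near match from -99 to -90. Acta2 held 2 near matches, from -84 to -75 and from -34 to -25, and no exact box. Of 32851 promoters searched, 1.63% held a CArG box and 9.98% a box or a near match. The windows of Kcnmb1, Cnn1, Tpm1, Tpm2 and Mylk held neither, which says nothing of sites outside them.

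The libraries held 16452260 to 22664693 counts (median 19029320), which puts 3 counts in a library at 0.132 to 0.182 CPM, that is counts scaled to the size of the library, and a gene below this level could not be told from 0. No pair of libraries held identical counts. Cdk8 stood at 56.1 ± 2.13 CPM (SD, n = 3) in cntrl cells in DMSO, at 21.4 ± 2.44 in shCdk8-1 and at 38.9 ± 0.376 in shCdk8-2 cells, and Cdk19 at 93.7 ± 0.237, 125 ± 3.53 and 102 ± 1.7 CPM. The library of cntrl cells in SnxB labelled replicate 2 stood apart on Egr1, with 8937 counts against 4 to 22 in each of the other 17 libraries. Whether it stood apart on other genes was not tested. Fold changes and counts of members that use this library are given also without it, while levels, marker sums and correlations include it. For shCdk8-2 the count files carry the replicate numbers 2, 3 and 3 where the labels have 1, 2 and 3, and the labels were used.

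Markers of the labelled cell type and of cells that express contractile genes were checked across the groups. Of the smooth muscle markers, Myh11, the smooth muscle myosin heavy chain, reached at most 2 counts in any library, and Myocd at most 7. The basal keratins Krt5, Krt14 and Krt17 and the luminal keratins Krt18 and Krt19 had at most 1 count in any library, and Epcam at most 8. Krt8 differed between the lines, at 0.0549 CPM in cntrl, 7.51 in shCdk8-1 and 13 in shCdk8-2 cells in DMSO, so that cntrl cells lacked these epithelial markers, while Esr1 stood at 23.1 CPM in cntrl and at 1.25 and 0.951 in the shCdk8 lines. The endothelial marker Pecam1 stood at 0.286, 14.3 and 5.85 CPM in the same order, whereas Cdh5 stood at 4.34, 0.206 and 0.595 CPM and the blood marker Ptprc at 0.28, 0.0157 and 0, and the part of such differences between lines in the results was not tested. Summed levels of the striated muscle list stayed between 0.0547 and 1.02 CPM and of the myoepithelial list between 0.325 and 1.2 CPM in all libraries. Of the 11 fibroblast and pericyte markers, Col3a1, Pdgfra and Pdgfrb were abundant, at 1987, 286 and 265 CPM in cntrl cells in DMSO, and the others were low there, from Cspg4 at 4.9 and Col1a1 at 0.78 CPM down to Postn and Fap at 0. Their summed level, most of it Col3a1, was 2509 to 2586 CPM in cntrl cells in DMSO and 3114 to 3513 in SnxB, 1782 to 1912 and 1867 to 1999 in shCdk8-1 cells, and 2083 to 2201 and 2366 to 2476 in shCdk8-2 cells. This sum was thus higher in SnxB in cntrl and in shCdk8-2 cells without overlap, and overlapped between the treatments in shCdk8-1 cells. The sum does not stand for each marker. In DMSO, Col3a1 (1406 and 1690 CPM), Pdgfra (229 and 256) and Pdgfrb (166 and 162) were lower in shCdk8-1 and shCdk8-2 than in cntrl cells. Higher in both lines were Col1a1 (16.6 and 9.91 CPM), Cspg4 (8.45 and 6.29), Dcn (1.82 and 0.814) and Col1a2 (0.517 and 0.373). Lum, Rgs5, Postn and Fap stayed under 1 CPM in all groups. The part of these markers in the results on the contractile genes was not tested. The sum of the 7 smooth muscle markers was almost all Smtn, at 168 CPM in cntrl cells in DMSO, with each of the others under 2 CPM. They summed to 165 to 175 CPM in cntrl cells in DMSO and 185 to 191 in SnxB, and overlapped between the treatments in shCdk8-1 (148 to 157 and 154 to 163) and in shCdk8-2 cells (143 to 144 and 140 to 146). In bulk libraries, fewer cells of a type and less RNA per cell cannot be told apart.

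The level of the members ranged over several orders of magnitude. Scaled to exon length as well (RPKM), the order in cntrl cells in DMSO was Tpm1 (85.2 ± 1.59; SD, n = 3), Acta2 (79.8 ± 4.44), Srf (29.5 ± 0.99), Tpm2 (26.7 ± 0.38), Mylk (5.54 ± 0.23), Myl9 (1.44 ± 0.26), Actg2 (0.365 ± 0.122), Kcnmb1 (0.324 ± 0.0141), Tagln (0.0401 ± 0.0478) and Cnn1 at 0. Neighbours in this order overlapped for Actg2 and Kcnmb1, and Tagln and Cnn1 lay at or below 3 counts in each of these libraries. With 48 h of SnxB, Acta2 stood at 235 ± 4.62 RPKM in cntrl cells and was the member with the highest level, above Tpm1 at 105 ± 3.43. Of their paralogs, Actb, the non-muscle β-actin, stood at 1303 RPKM and Tpm4, a non-muscle tropomyosin, at 366 in cntrl cells in DMSO, above every member, whereas Myl6, a light chain, was at 18.4 and the striated α-actin Acta1 at 0.135.

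**Figure D1:**
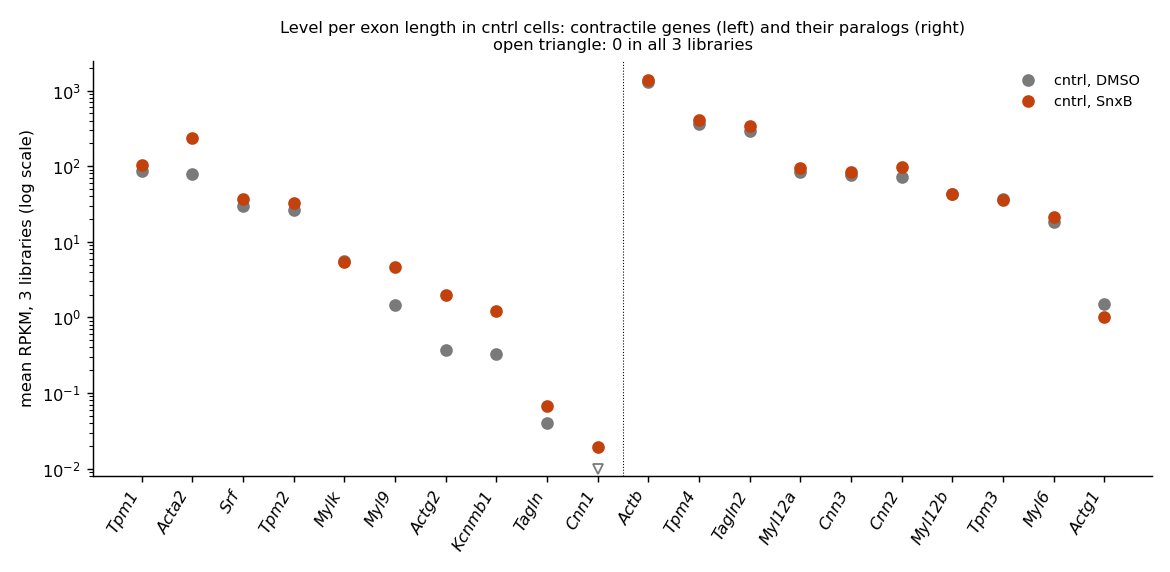
Mean level per exon length (RPKM, log axis) of the 10 contractile genes and of 10 paralogs in cntrl cells in DMSO and in SnxB, 3 libraries each. Acta2, Myl9, Actg2 and Kcnmb1 sit higher in SnxB, and Mylk sits at the same height in both treatments (5.54 and 5.36). An open triangle marks Cnn1, at 0 in all 3 DMSO libraries. For Actg1, Tpm3, Myl12a and Myl12b, 37.4%, 23.2%, 16.4% and 19.1% of their 50-base stretches occur in other genes. For Tpm4, Cnn3, Actb and Myl6 the shares are 11.7%, 10.3%, 9.12% and 8.38%. Reads from such stretches were not counted, so the levels of these genes may be understated, and the part of this in their levels was not tested.

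Reads of the members could be assigned with little loss. The reads were 50 bases long, and of all 50-base stretches in the annotated transcripts, 0 occurred in transcripts of another gene for Actg2, Myl9, Tagln, Cnn1, Tpm1, Tpm2 and Srf. Acta2 shared 7 of 2146 stretches, Kcnmb1 8 of 4142 and Mylk 12 of 11202.

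Acta2 (ENSMUSG00000035783.8), the vascular smooth muscle α-actin, lies on chromosome 19 from 34241090 to 34255336 (GRCm38, minus strand, counted on its exons, as are all members). In cntrl cells its 3 libraries held 133, 148 and 145 CPM in DMSO and 421, 426 and 410 in SnxB. In shCdk8-1 cells the values were 94.6, 92.4 and 96.8 CPM in DMSO and 208, 236 and 232 in SnxB, and in shCdk8-2 cells 207, 216 and 202 in DMSO and 425, 424 and 415 in SnxB. Every SnxB library thus lay above every DMSO library of its line. The log2 fold change was 1.56 in cntrl cells, as a description. Acta2 was upregulated 2.38-fold in shCdk8-1 cells (log2 fold change 1.25, SE 0.047, adjusted p = 1.42e-12) and 2.02-fold in shCdk8-2 cells (1.01, SE 0.045, adjusted p = 3.27e-11). In each of the shCdk8 lines it had the smallest p of the 12772 genes tested (place 1), although by fold it took place 55.

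Actg2, the enteric smooth muscle γ-actin (ENSMUSG00000059430.14, chromosome 6, 83512905 to 83536265, minus strand), was low in all lines. In DMSO it held 7, 9 and 16 counts in the cntrl libraries, 9, 8 and 2 in shCdk8-1 and 43, 45 and 22 in shCdk8-2. In SnxB it held 44, 73 and 65 counts in cntrl, 31, 30 and 32 in shCdk8-1 and 131, 107 and 102 in shCdk8-2 libraries. Treated and untreated libraries did not overlap in any line, and the DMSO libraries of shCdk8-2 lay above those of both other lines. Its log2 fold change was 2.39 in cntrl cells. Actg2 was upregulated 5.16-fold in shCdk8-1 (95% interval of the log2 fold change 1.63 to 3.10, adjusted p = 0.000725) and 3.42-fold in shCdk8-2 cells (1.38 to 2.18, adjusted p = 1.94e-05). The value in shCdk8-1 rests on few counts and lay between 1.95 and 2.64 on the log2 scale when 1 library of that line was left out.

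Myl9 encodes the regulatory light chain of smooth muscle myosin, whose phosphorylation starts contraction (ENSMUSG00000067818.6, chromosome 2, 156775420 to 156781658, plus strand). The libraries of cntrl cells held 1.85, 1.84 and 1.32 CPM in DMSO and 4.37, 5.99 and 5.74 in SnxB. Those of shCdk8-1 held 3.15, 2.96 and 3.77 CPM in DMSO and 7.42, 8.56 and 8.89 in SnxB, and those of shCdk8-2 held 5.01, 5.21 and 4.66 in DMSO and 12.4, 11.7 and 12.6 in SnxB. The groups were ordered alike under both treatments, with cntrl lowest and shCdk8-2 highest. The log2 fold change with SnxB was 1.70 in cntrl and 1.33 in shCdk8-1 cells (SE 0.128, adjusted p = 8.49e-06), and Myl9 was upregulated 2.47-fold in shCdk8-2 cells (95% interval of the log2 fold change 1.07 to 1.54, adjusted p = 2.21e-06).

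Kcnmb1 (ENSMUSG00000020155.2), the β1 subunit of the large-conductance calcium-activated potassium channel that relaxes smooth muscle, lies on chromosome 11 from 33963013 to 33973641 (plus strand). Its libraries held 1.29, 1.41 and 1.37 CPM in cntrl cells in DMSO and 5.85, 4.22 and 5.18 in SnxB. In shCdk8-1 cells it held 0.517, 0.57 and 0.671 CPM in DMSO and 1.99, 1.43 and 1.16 in SnxB, and in shCdk8-2 cells 0.566, 0.511 and 0.493 in DMSO and 1.58, 2.11 and 1.77 in SnxB. Each line responded without overlap, and both shCdk8 lines stayed below cntrl. The log2 fold changes were 1.89 in cntrl, 1.38 in shCdk8-1 (95% interval 0.83 to 1.92, adjusted p = 0.0067) and 1.77 in shCdk8-2 cells (1.24 to 2.30, adjusted p = 0.000358).

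**Figure D2:**
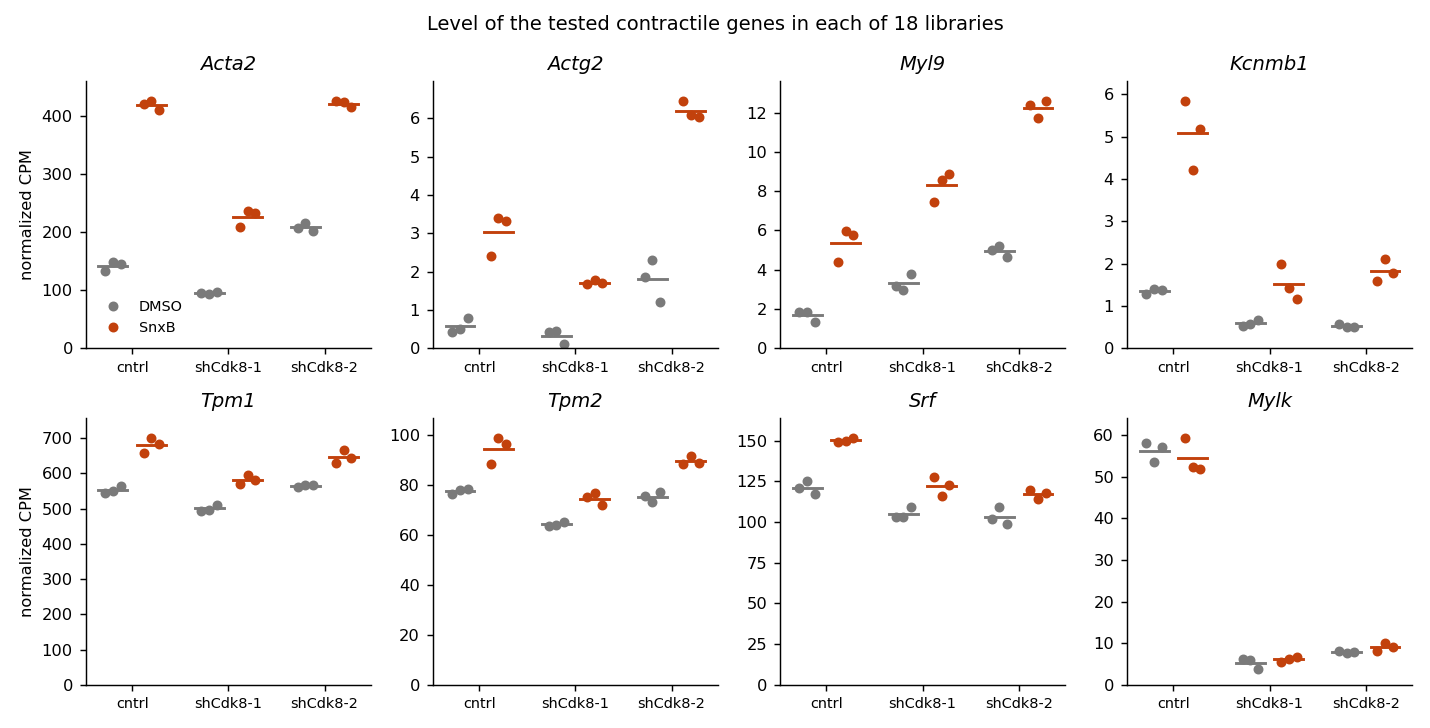
Normalized CPM (linear axes from 0) of the 8 tested members in each of the 18 libraries, by line and treatment. Points are libraries and bars are means of 3. Acta2, Actg2, Myl9 and Kcnmb1 separate widely by SnxB in each line, Tpm1, Tpm2 and Srf by a small step, and Mylk separates cntrl cells from both shCdk8 lines.

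Tpm1 and Tpm2 encode tropomyosins that lie along the actin filament and have splice forms in many cell types, which counts per gene do not tell apart. Tpm1 (ENSMUSG00000032366.15, chromosome 9, 67022590 to 67049406, minus strand) held 545 to 564 CPM in cntrl libraries in DMSO and 658 to 702 in SnxB, 494 to 511 and 569 to 596 in shCdk8-1, and 562 to 568 and 629 to 666 in shCdk8-2 cells. Its increase was 16.2% in shCdk8-1 (adjusted p = 0.00123) and 14.2% in shCdk8-2 cells (adjusted p = 0.00281). Tpm2 (ENSMUSG00000028464.16, chromosome 4, 43514711 to 43523765, minus strand) held 76.4 to 78.4 and 88.3 to 99 CPM in cntrl, 63.7 to 65.1 and 72.1 to 76.6 in shCdk8-1, and 73.2 to 77 and 88.3 to 91.7 in shCdk8-2 cells. Its increase was 16% in shCdk8-1 (adjusted p = 0.00944) and 18.9% in shCdk8-2 cells (adjusted p = 0.00148). The steps were small beside those of Acta2, but no DMSO library reached a SnxB library of its line in either gene.

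Srf encodes the transcription factor itself (ENSMUSG00000015605.5, chromosome 17, 46546839 to 46556162, minus strand). It held 117 to 125 CPM in cntrl libraries in DMSO and 149 to 152 in SnxB, 103 to 109 and 116 to 128 in shCdk8-1, and 99.1 to 109 and 114 to 120 in shCdk8-2 cells. The increase was 16.5% in shCdk8-1 (adjusted p = 0.00936) and 13.3% in shCdk8-2 cells (adjusted p = 0.034). This was the weakest call among the members. In shCdk8-2 cells it was lost without DMSO replicate 1 (adjusted p = 0.123) or 3 (0.19) and without SnxB replicate 1 (0.161), 2 (0.0542) or 3 (0.106). In shCdk8-1 cells Srf lost its call without DMSO replicate 1 (adjusted p = 0.0746) or SnxB replicate 3 (0.0509), and Tpm2 without DMSO replicate 1 (0.0678) or SnxB replicate 2 (0.0538).

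Mylk was not called as raised by SnxB in either shCdk8 line, and Tagln and Cnn1 could not be tested. Mylk, the kinase that phosphorylates the regulatory myosin light chain (ENSMUSG00000022836.10, chromosome 16, 34745210 to 35002420, plus strand), held 58, 53.6 and 57.1 CPM in cntrl libraries in DMSO and 59.4, 52.2 and 51.9 in SnxB, which overlapped. In shCdk8-1 cells it held 6.2, 5.87 and 3.87 CPM in DMSO and 5.59, 6.18 and 6.72 in SnxB, and in shCdk8-2 cells 8.2, 7.6 and 7.9 in DMSO and 8.23, 10 and 8.98 in SnxB. In the last of these lines each SnxB library lay above each DMSO library, if narrowly. Its log2 fold change with SnxB was -0.05 in cntrl, 0.21 in shCdk8-1 (95% interval -0.08 to 0.51, adjusted p = 0.518) and 0.20 in shCdk8-2 cells (-0.06 to 0.45, adjusted p = 0.574). The intervals in the shCdk8 lines include 0 and also rises as large as those of Tpm1, Tpm2 and Srf. Tagln, the actin-binding protein SM22α (ENSMUSG00000032085.5, chromosome 9, 45929619 to 45936058, minus strand), held 3, 1 and 0 counts in cntrl libraries in DMSO and 1, 3 and 4 in SnxB, 1, 2 and 1 and then 3, 2 and 5 in shCdk8-1, and 5, 2 and 1 and then 12, 8 and 7 in shCdk8-2 cells. Only the libraries of shCdk8-2 in SnxB all lay above 3 counts, and all lay above the DMSO libraries of that line, but Tagln did not pass the filter. Cnn1, calponin (ENSMUSG00000001349.5, chromosome 9, 22099216 to 22109630, plus strand), held 0 to 2 counts in every library and gives no direction. It had 0 in all 3 libraries of cntrl in DMSO and of shCdk8-2 in SnxB. In 1 library, 0 counts allow a level of up to 0.182 CPM, and 0 in all 3 together allows less. This limit covers counting error only.

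Counted over the set, 4 of the 8 tested members had a log2 fold change above 1 in cntrl cells, where 0.799% of all tested genes did. This contrast is treated as the one the genes were chosen on, so nothing is read from the count. Without the cntrl library that stood apart on Egr1, the fold changes in cntrl cells were 1.55 for Acta2, 2.30 for Actg2, 1.61 for Myl9, 2.01 for Kcnmb1, 0.32 for Srf, 0.28 for Tpm1, 0.25 for Tpm2 and -0.02 for Mylk on the log2 scale.

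The response was tested in the shCdk8 libraries, which do not enter the contrast in cntrl cells. In shCdk8-1 cells 7 of the 8 tested members were upregulated by SnxB at an adjusted p under 0.05 and 0 downregulated, where 0.916% of all tested genes were higher and 0.564% lower. In shCdk8-2 cells the same count was 7 higher and 0 lower, where 0.987% of all tested genes were higher and 1.06% lower. With both shCdk8 lines averaged, 7 were higher and 0 lower, beside 2.79% and 3.27% of all tested genes, and the median log2 fold change of the 8 was 0.68 against 0.000634 over all genes. When the fit was made to the 6 shCdk8-1 libraries alone, 3 members stayed past the threshold in place of 7 (Acta2, Actg2 and Myl9), whereas Kcnmb1 (adjusted p = 0.0996), Tpm1 (0.0588), Tpm2 (0.1) and Srf (0.161) did not. The averaged count of 7 held in each of 8 other settings of the fit and with each of the 12 shCdk8 libraries left out. The members were chosen with earlier results of these data known, and these libraries may have been in view. The counts can therefore not be taken as independent of that choice.

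**Figure D3:**
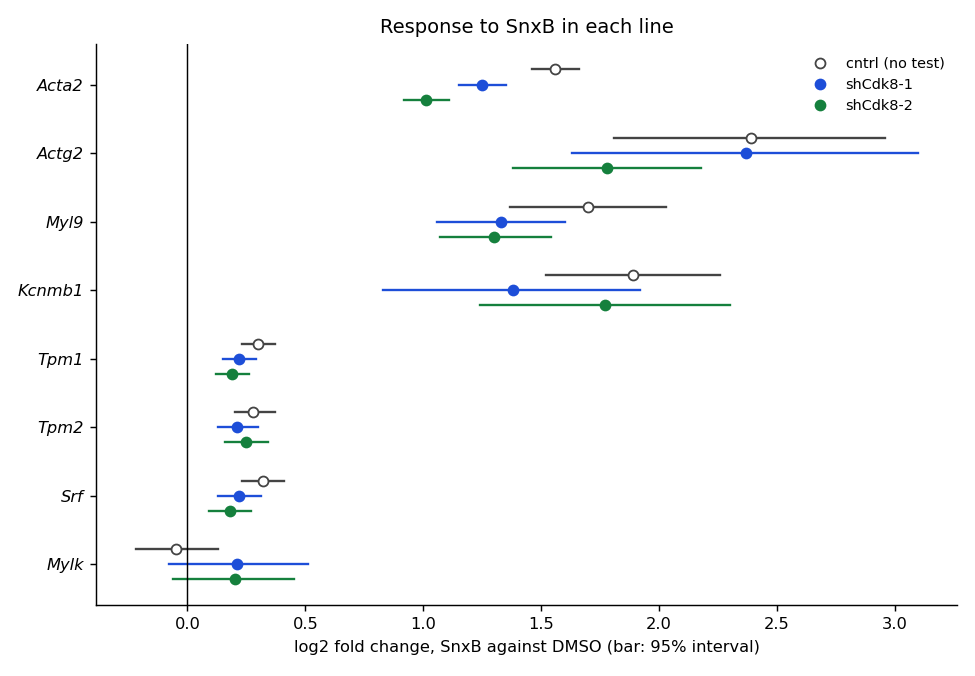
Log2 fold change of SnxB against DMSO (x axis) for the 8 tested members, with 95% intervals, in cntrl (open points), shCdk8-1 and shCdk8-2 cells (filled points). The cntrl values are treated as those the genes were chosen on and carry no test. Acta2, Actg2, Myl9 and Kcnmb1 lie between 1.01 and 2.39 in all lines, Tpm1, Tpm2 and Srf between 0.18 and 0.32, and the intervals of Mylk include 0.

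Averaged over the shCdk8 lines, the folds fell into separate ranges. Actg2 rose 4.2-fold (log2 fold change 2.07, SE 0.197), Kcnmb1 2.98-fold (1.57, SE 0.182), Myl9 2.49-fold (1.31, SE 0.0851) and Acta2 2.19-fold (1.13, SE 0.0325). Tpm2 rose by 17.4%, Tpm1 by 15.2% and Srf by 14.9%, and Mylk, at 15.3%, did not pass (adjusted p = 0.226). By place among all tested genes, ordered by fold, Actg2 was at 4, Kcnmb1 at 10, Myl9 at 21 and Acta2 at 32. Acta2 again had the smallest p (adjusted p = 8.97e-15), and Myl9 was at place 4 by p.

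The next question was whether the response differed between the lines. The response in shCdk8-1 was set beside that in cntrl cells without a test, since the cntrl value is treated as one that chose the genes. The log2 fold change differed from that in cntrl by -0.31 for Acta2, -0.37 for Myl9, -0.51 for Kcnmb1 and -0.02 for Actg2. For shCdk8-2 the differences from cntrl were -0.55 for Acta2, -0.40 for Myl9, -0.12 for Kcnmb1 and -0.61 for Actg2. Both sets of differences share the cntrl libraries. Between the shCdk8 lines themselves the response could be tested. With edgeR, 0 of the 8 members differed, as did 0% of all tested genes in either direction. Of the 12772 genes, 431 had an unadjusted p under 0.05. DESeq2 likewise called 0 (251 with an unadjusted p under 0.05), and so did the likelihood ratio test (438). Each of these unadjusted counts is less than a share of 0.05 of the genes tested, which is what that threshold would pass if no gene differed. Among the members 1, Acta2, had an unadjusted p under 0.05, with a log2 response that differed by -0.24 in shCdk8-2 from that in shCdk8-1 cells (95% interval -0.37 to -0.10). The interval was -1.48 to 0.30 for Actg2, -0.41 to 1.19 for Kcnmb1 and -0.38 to 0.33 for Myl9, so differences of that size in the response were not detectable here.

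The shCdk8 lines did not differ from cntrl in a single direction. Compared with cntrl in DMSO, shCdk8-1 cells had 1 of the 8 tested members higher and 6 lower, and shCdk8-2 cells had 3 higher and 3 lower. In these comparisons 30.1% of all tested genes were higher and 29.5% lower in shCdk8-1, and 29% and 28.1% in shCdk8-2, so that calls were common among all genes. Both comparisons use the same 3 cntrl libraries, which also enter the response in cntrl cells. Genes picked for a rise in cntrl cells can for that reason look higher against cntrl in DMSO.

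Mylk changed most. It was 10.6-fold lower in shCdk8-1 (log2 fold change -3.40, SE 0.108, adjusted p = 5.52e-16) and 7.13-fold lower in shCdk8-2 cells (-2.83, SE 0.101, adjusted p = 5.79e-15). Kcnmb1 was lower in both lines, with log2 fold changes of -1.21 (SE 0.266, adjusted p = 0.000543) and -1.36 (SE 0.269, adjusted p = 0.000215). Srf was lower by 13.2% in shCdk8-1 (percent change -13.2, adjusted p = 0.000424) and by 14.3% in shCdk8-2 cells (-14.3, adjusted p = 0.000199). Myl9 was higher in both, 1.99-fold in shCdk8-1 (adjusted p = 5.64e-05) and 2.99-fold in shCdk8-2 cells (adjusted p = 5.37e-08).

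The actins went apart between the hairpins. Acta2 was lower in shCdk8-1 (log2 fold change -0.59, SE 0.0473, adjusted p = 1.32e-09) and higher in shCdk8-2 cells (0.55, SE 0.0459, adjusted p = 2.77e-09). Actg2 was 3.09-fold higher in shCdk8-2 (adjusted p = 0.000122), and in shCdk8-1 cells its log2 fold change of -0.82 did not pass (95% interval -1.75 to 0.12, adjusted p = 0.125). The tropomyosins were lower in shCdk8-1, Tpm1 at -0.14 (adjusted p = 0.00114) and Tpm2 at -0.27 on the log2 scale (adjusted p = 1.26e-05), and in shCdk8-2 they stood at 0.03 (adjusted p = 0.431) and -0.04 (adjusted p = 0.38).

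**Figure D4:**
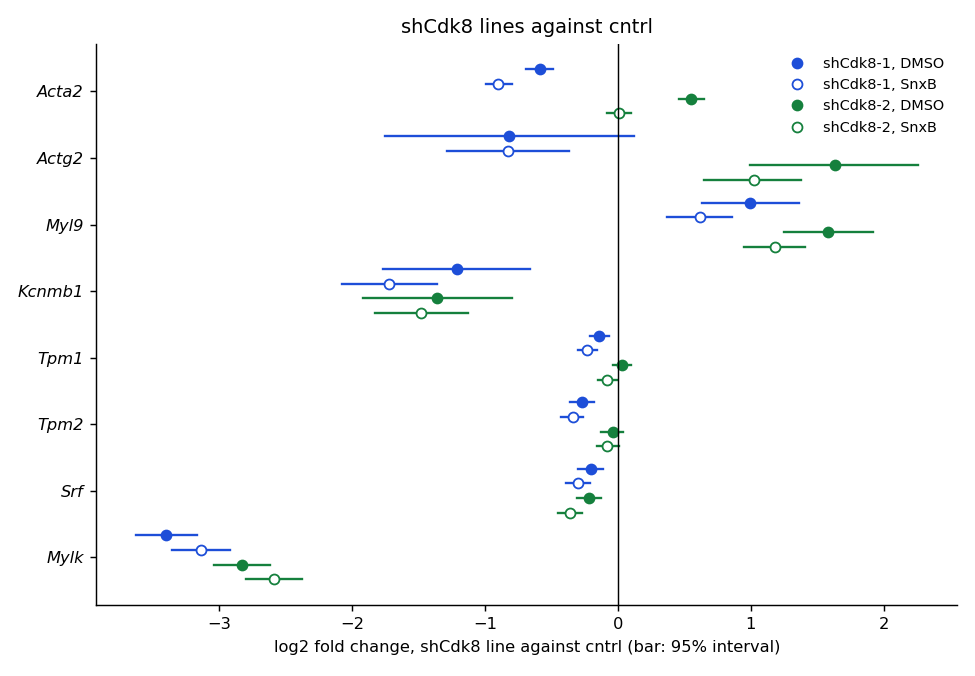
Log2 fold change of each shCdk8 line against cntrl (x axis) for the 8 tested members, with 95% intervals, in DMSO (filled points) and in SnxB (open points). Mylk and Kcnmb1 lie below 0 and Myl9 above 0 with both hairpins, and Acta2 lies at -0.59 with shCdk8-1 and at 0.55 with shCdk8-2 in DMSO.

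Tested directly in DMSO, 6 of the 8 members were higher in shCdk8-2 than in shCdk8-1 cells and 0 lower, where 11.2% of all tested genes were higher and 9.91% lower. Actg2 was 5.44-fold higher (adjusted p = 2.86e-05), Acta2 2.2-fold (adjusted p = 1.94e-12), Myl9 1.5-fold (adjusted p = 0.00412) and Mylk 1.48-fold (adjusted p = 0.00402). Tpm2 was higher by 17.1% (adjusted p = 0.000533) and Tpm1 by 13% (adjusted p = 0.000799). For Kcnmb1 the log2 difference was -0.15 (95% interval -0.82 to 0.52) and for Srf -0.02 (-0.11 to 0.07). The lines also differed in Cdk8 mRNA, which was lower in shCdk8-1, and in Cdk19 mRNA, which was higher there, and the part of either in these differences was not tested.

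In SnxB, shCdk8-1 cells had 1 member higher than cntrl and 7 lower, where 30.5% of all tested genes were higher and 30.1% lower. In the same treatment shCdk8-2 cells had 2 higher and 3 lower, where 28.1% were higher and 28.6% lower. The cntrl libraries in SnxB also enter the response treated as the one the genes were chosen on. Genes picked as high there can look lower in the shCdk8 lines, so nothing is read from these counts. Acta2 was lower in shCdk8-1 (log2 fold change -0.90, SE 0.0449, adjusted p = 7.75e-13) and did not differ in shCdk8-2 cells beyond its spread (0.01, 95% interval -0.08 to 0.10, adjusted p = 0.898). Thus the level of Acta2 in shCdk8-2 cells in DMSO, 209 ± 7.24 CPM, lay near that of shCdk8-1 cells in SnxB, 225 ± 14.9 CPM. Actg2 was lower in shCdk8-1 (-0.83, adjusted p = 0.00269) and higher in shCdk8-2 cells (1.02, adjusted p = 4.83e-05). Mylk remained 8.82-fold and 6.01-fold lower. Without the cntrl library that stood apart on Egr1, the log2 fold changes in shCdk8-1 and shCdk8-2 were -0.89 and 0.01 for Acta2, -0.75 and 1.10 for Actg2 and -3.18 and -2.62 for Mylk, and the counts were 1 and 7 for shCdk8-1 and 2 and 3 for shCdk8-2. Without cntrl SnxB replicate 1 the count of lower members in shCdk8-2 was 5 in place of 3, Tpm1 (adjusted p = 0.0154) and Tpm2 (0.00792) being added.

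Other genes of the pathway were counted from lists chosen with earlier results of these data known. Of 20 smooth muscle differentiation markers, 12 were tested, and with SnxB averaged over the shCdk8 lines 5 rose and 1 fell, at a median log2 fold change of 0.22. In shCdk8-1 cells alone 1 rose and 0 fell, and in shCdk8-2 cells 4 rose and 0 fell. Over all tested genes 2.79% rose and 3.27% fell in the averaged comparison, 0.916% and 0.564% in shCdk8-1 and 0.987% and 1.06% in shCdk8-2 cells, which is the background for each list here. Lmod1, a leiomodin, is among the markers that rose on average and in shCdk8-2, but passed the filter only through shCdk8-2 in SnxB, where it was at 0.832 CPM against 0.0163 to 0.255 in the other groups, so its place in the counts is no support. Those with the smallest p were Csrp1, a LIM protein bound to the actin cytoskeleton (0.38, adjusted p = 4.78e-07), Ldb3 (0.87, adjusted p = 0.000492), the intermediate filament gene Synm (0.33, adjusted p = 0.0028) and caldesmon, Cald1 (0.10, adjusted p = 0.0095). Of 21 paralogs of the members, 12 were tested, 5 rose and 0 fell, at a median of 0.12. The first of them was Cnn2, a calponin of non-muscle cells (0.35, adjusted p = 7.16e-09), followed by Tpm4 (0.13, adjusted p = 0.0025), Myl12a (0.13, adjusted p = 0.00694) and Cnn3 (0.12, adjusted p = 0.008).

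Of 30 cytoskeletal and matricellular targets of MRTF and SRF, 28 were tested, 11 rose and 1 fell, at a median of 0.10, with 8 rising and 0 falling in shCdk8-1 and 9 rising and 0 falling in shCdk8-2 cells alone. The smallest p were those of Pdlim5 (0.29, adjusted p = 9.54e-07), Lima1 (0.30, adjusted p = 1.45e-06), the actin-depolymerizing factor Dstn (0.34, adjusted p = 1.56e-06) and Wdr1 (0.19, adjusted p = 6.17e-06). The target that fell was Itga5 (-0.12, adjusted p = 0.0353), named after its value was seen. Among 12 immediate early genes driven by TCF and SRF, 10 were tested, 1 rose (Ier3, 0.12, adjusted p = 0.0104) and 0 fell, at a median of -0.03. Egr1 was among the 10, at 0.22 with an SE of 3.34, in a joint fit that holds the cntrl library with 8937 counts. Only a very large change of Egr1 could have been called, so its place among the uncalled genes says nothing of its response. Among 16 cofactors and regulators of SRF, 14 were tested, 0 rose and 1 fell (Diaph1, a formin that assembles actin, -0.14, adjusted p = 0.046). That call was lost in the edgeR test with DESeq2's size factors (adjusted p = 0.0542). It was also lost with several single libraries left out, such as shCdk8-1 DMSO replicate 2 (adjusted p = 0.133). Mrtfa stood at -0.09 (adjusted p = 0.136), Mrtfb at -0.12 (0.307), Elk3 at -0.05 (0.362), Elk4 at -0.12 (0.11) and Elk1 at 0.00, while Myocd was too low to test. The members' median of 0.68 lay above that of each list, as a description, since the members were picked as genes raised by SnxB.

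**Figure D5:**
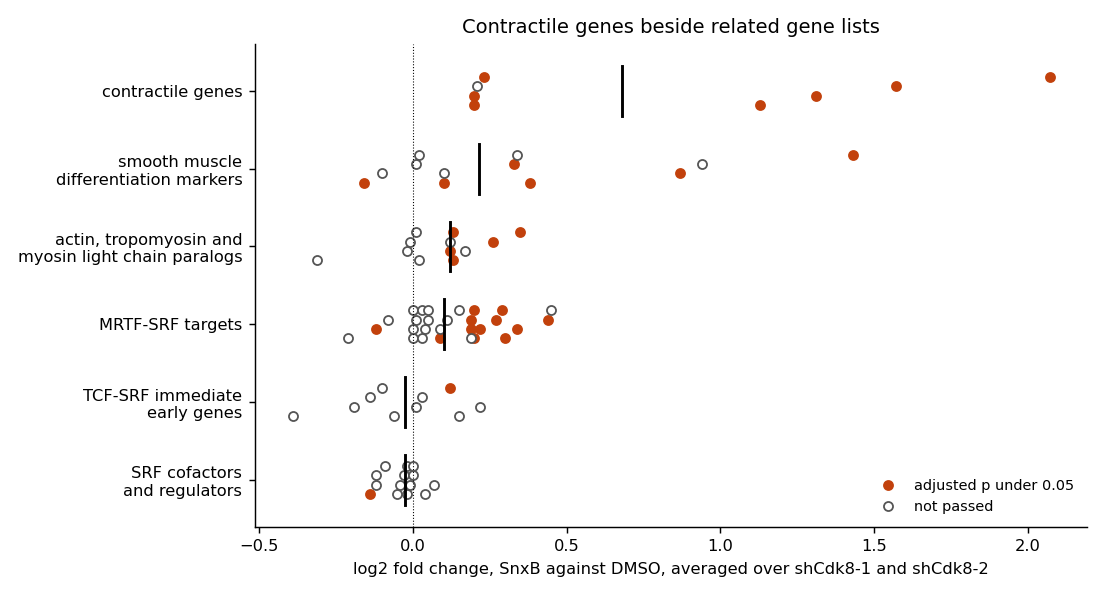
Log2 fold change of SnxB against DMSO, averaged over both shCdk8 lines (x axis), for the 8 tested contractile genes and 5 lists of related genes (rows). Points are genes, filled at an adjusted p under 0.05, and bars are medians, at 0.68 for the contractile genes, 0.22 for the smooth muscle markers and 0.12, 0.10, -0.03 and -0.02 for the other lists.

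The lists were also counted against cntrl in DMSO, where 30.1% of all tested genes were higher and 29.5% lower in shCdk8-1, and 29% and 28.1% in shCdk8-2. Of the 28 tested MRTF and SRF targets, 5 were higher and 18 lower in shCdk8-1, and 5 higher and 16 lower in shCdk8-2 cells. Cav1, the caveolar coat protein, was lower at -1.01 in shCdk8-1 (adjusted p = 3.28e-15). Zyx, an adhesion protein, was lower at -0.93 (adjusted p = 9.63e-15) and -0.84 (adjusted p = 7.48e-14), and Filip1l at -1.40 (adjusted p = 8.74e-15) and -1.17 (adjusted p = 1.6e-13). Other targets were higher in both lines, such as Actn1, an actin cross-linker, at 0.92 (adjusted p = 2.46e-12) and 0.86 (adjusted p = 1.01e-11), and Ccn2 at 1.02 (adjusted p = 4.5e-07) and 1.00 (adjusted p = 6.89e-07). Thbs1, thrombospondin, was at 0.0525 CPM in cntrl, 5.97 in shCdk8-1 and 0.739 in shCdk8-2 cells, and its cntrl level lay under that of 3 counts. It passed the filter only through the shCdk8 groups, where it was high, so its place among the higher targets is no support. Actn1, Ccn2 and Thbs1 were named after their values were seen. Of the 12 tested paralogs 0 were higher and 8 lower with each hairpin, and Tpm4 led both with -0.86 (adjusted p = 4.08e-14) and -0.82 (adjusted p = 1.49e-13). The 14 tested cofactors and regulators had 0 higher and 8 lower in shCdk8-1 and 2 higher and 7 lower in shCdk8-2 cells. Mrtfa was at -0.58 (adjusted p = 1.31e-09) and -0.40 (adjusted p = 2.84e-07) and Elk3 at -0.47 (adjusted p = 2.96e-09) and -0.51 (adjusted p = 1.16e-09). The values of Mrtfb were -0.07 and -0.02, those of Elk1 -0.02 and -0.04, and those of Elk4 0.10 and 0.06, and none of these passed. Among the 10 tested immediate early genes, 2 were higher and 5 lower in shCdk8-1 and 1 higher and 3 lower in shCdk8-2 cells. For Egr1 the SE was 4.21 in shCdk8-1 and 4.24 in shCdk8-2, so here too only a very large change could have been called. Ier3 stood at -0.92 (adjusted p = 4.08e-14) and -0.45 (adjusted p = 3.5e-09). Of the 12 tested smooth muscle markers, 4 were higher and 4 lower in shCdk8-1 and 3 higher and 1 lower in shCdk8-2 cells, with Synm at 1.70 (adjusted p = 1.11e-10) and 2.02 (adjusted p = 6.22e-12). Lmod1, counted as higher with both hairpins, and Casq2, counted as higher in shCdk8-1, passed the filter only through shCdk8 groups. Their places in these counts are therefore no support.

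Apart from Mylk, the tested members varied together within lines. When the 6 libraries of each line were centred on their own mean, so that the treatment dominated what was left, the log2 level of Acta2 had Pearson's r of 0.98 with Myl9 and Tpm1, 0.95 with Kcnmb1 and Tpm2 and 0.94 with Actg2 and Srf over the 18 libraries, and of 0.31 with Mylk. These values describe libraries that share 2 treatments, and the members were picked as genes raised by SnxB. High r among them follows from that choice, so nothing is read from it. Among tested genes outside the set whose mean reached 1 CPM, the pattern most like that of Acta2 on this scale was that of Cnn2 (r = 0.993), Sgk1 (0.986), Wdr1 (0.983), F3 (0.982) and Plk2 (0.981). For Actg2 it was Rnf144b (0.960), Knop1 (0.956), Sgk1 (0.955), Cnn2 (0.945) and Myo18b (0.940). Sgk1, a serum- and glucocorticoid-induced kinase, and Cnn2 were named for both actins. Without centring, where the lines count as well, Hoxd10 (0.951), Pdia6 (0.915), Efemp2 (0.902), Pdlim7 (0.886) and Serpinf1 (0.883) came closest to Acta2, and Efemp2 (0.917), Plpp1 (0.897), Ccdc85b (0.889), Nme7 (0.864) and Hoxd10 (0.849) to Actg2. The likeness covers the libraries of cntrl cells as well, and it is given without a test.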

How the data were processed

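The authors trimmed 50-base single-end reads with Trimmomatic, mapped them with STAR to GRCm38 (GENCODE) and counted reads per gene on the union of its exons by strand with featureCounts. Reads mapping to several places or overlapping several genes were not counted. The deposited values are these raw counts, without normalization or pooling. Symbols came from GENCODE M21 of the same build (50376 of 50686 genes).

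The 18 libraries were fitted together with edgeR 4.0.16 (R 4.3.3; glmQLFit, glmQLFTest), with TMM scaling, filterByExpr (minimum count 10, minimum total 15) and Benjamini-Hochberg adjustment over 12772 genes. A gene was called at an adjusted p under 0.05. Standard errors were derived from the F statistic. CPM and RPKM use TMM-scaled library sizes. The members and lists were chosen with earlier results of these data known. All members were named, and per list up to 4 genes of lowest adjusted p in each of the averaged SnxB and the shCdk8 contrasts. Alternatives used DESeq2 1.42.0, edgeR's likelihood ratio test, other size factors and filters, a replicate block, only the groups compared, and each library left out. On simulated counts with 200 genes changed 2-fold, the averaged SnxB test recovered 198 with 6 false calls (12513 genes), the shCdk8-1 test 190 with 9 and the test between responses 179 with 16 (12514 genes each). Only genes with a mean above 1 CPM were changed, on means shared by all groups. Recovery of smaller changes, such as those of Tpm1, Tpm2 and Srf, or at lower levels was not tested. The smooth muscle marker that fell with SnxB is counted and not reported by name here. Figures were drawn with matplotlib 3.10.9.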

Additional observations from a re-analysis of the deposited data

Results flagged for a closer look

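For 6 members the difference from the same cntrl libraries in DMSO was not alike in shCdk8-2 and shCdk8-1 cells by the direct test between the lines. The difference on the log2 scale was 2.44 for Actg2, 1.14 for Acta2, 0.59 for Myl9, 0.57 for Mylk, 0.23 for Tpm2 and 0.18 for Tpm1, higher in shCdk8-2 in each case. For Acta2 the lines differed from cntrl in opposite directions, and all libraries of shCdk8-1 lay below and all of shCdk8-2 above the cntrl libraries.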

How the results depend on the processing

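In shCdk8-1 cells 3 in place of 7 members were higher when only the groups compared entered the fit, which leaves fewer libraries to estimate the spread, and 5 to 7 with each library of that line left out. In shCdk8-2 cells the count was 6 to 7 and, averaged over both lines, 7 in every setting run. For shCdk8-2 against cntrl in SnxB, 3 to 5 members were lower with each library left out. All other counts of members stayed within 1.5 times the main count. Replicate numbers did not pair the samples: deviations of libraries with the same number correlated at -0.184 to 0.247, and no 2 groups had every pair over 0.1. With the replicate number as a block, Srf in shCdk8-2 cells lost its call (adjusted p = 0.0531; range over its alternatives 0.0143 to 0.19), and Tpm1 in shCdk8-2 against cntrl in SnxB gained one (adjusted p = 0.0428), as it did with DESeq2 (0.0288) and with the filter of more than 1 CPM (0.0408). No other call of a member changed under the block.

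Signs changed only for values close to 0 and without a call. Acta2 in shCdk8-2 against cntrl in SnxB was -0.01 without a filter, and Mrtfb in shCdk8-2 against cntrl in DMSO 0.01 with library totals. With 1 library left out, the difference in response between the shCdk8 lines ranged from -0.13 to 0.04 for Myl9, -0.14 to 0.17 for Mylk and -0.08 to 0.01 for Srf, the difference of Srf between these lines in DMSO from -0.06 to 0.01, and that of Elk1 between shCdk8-1 and cntrl in DMSO from -0.07 to 0.03. Without a filter, Tagln had a log2 fold change of 1.59 with SnxB averaged over the shCdk8 lines (adjusted p = 0.0717). Depth limits Actg2, Kcnmb1, Tagln and Cnn1 most, with 2 counts of Actg2 in the lowest library.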
